A study of Mus musculus with 8 samples.

Results

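The proteasome genes of the mouse pancreas were taken as every gene whose symbol starts with Psm, a letter from a to g and a digit, on a row of the expression array that the platform annotation gives to that gene alone. This pattern found 49 of the 22180 genes measured. Of these, 47 code for proteasome subunits, regulators or assembly factors, while Psmc3ip, a meiotic recombination factor, and Psme3ip1, a partner of an activator, match the pattern and are not part of the complex. Psma4 occurs on rows annotated with several genes and was not analysed here, so 1 constitutive subunit of the core ring has no value. The members fall into 7 genes of the alpha ring, 8 constitutive or thymic genes of the beta ring, 3 immunoproteasome genes, 6 ATPases and 14 Psmd genes of the regulatory particle, 4 activators, the regulator Psmf1 and 4 Psmg chaperones. The roles were assigned by gene name, but the members and rules were chosen with earlier results of these data known.

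Total RNA was measured on 8 arrays of pancreas from C57 BL6 mice, 4 from controls (LmnaWT, called WT) and 4 from knockouts (LmnaKO, called KO), each with 3 males and 1 female. Every animal, control or knockout, received tamoxifen by intraperitoneal injection at 3 mg per 40 g, and RNA was collected 6 days later. Lmna encodes lamin A/C, a protein of the nuclear lamina, and by the title of the series it was ablated in acinar cells. The sources used here do not give the Cre driver, whether controls carry it, the age of the mice or any pooling. The labels name separate samples without saying that each is 1 animal, so every p-value reflects only the scatter among these 8 samples. In whole pancreas, fewer cells of a type and less RNA per cell cannot be told apart.

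The proteasome is the cytosolic and nuclear protease that degrades proteins tagged with ubiquitin. Its barrel-shaped core particle (20S) is built of outer rings of alpha subunits and inner rings of beta subunits, and a regulatory particle (19S) recognises, unfolds and feeds substrates into it. Interferon can swap the 3 catalytic beta subunits for immunoproteasome forms, and the transcription factor NRF1 (Nfe2l1) raises proteasome genes when proteasome capacity falls short. In acinar cells, which make large amounts of secreted enzymes, misfolded proteins withdrawn from the endoplasmic reticulum end at this protease.

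Values are log2 expression, so a difference of 1 is a doubling, and a gene is called when its KO minus WT difference passes an adjusted p of 0.05 (limma, Benjamini-Hochberg over all 22180 genes). The arrays held pancreas RNA by their markers: the summed level of 7 measured acinar markers was 14.32 to 14.39 in WT and 13.99 to 14.23 in KO. That sum was lower in every KO array than in any WT array. Of the 7 markers 0 rose and 2 fell, while 14.6% of all genes rose and 6.99% fell. In array order 1 to 4, Lmna itself read 2.54, 3.13, 2.67 and 2.88 in WT, then 2.33, 2.58, 2.73 and 2.61 in KO, a difference of -0.24 ± 0.15 (log2, SE, limma adjusted p = 0.264). Its groups overlapped, and where its probes lie in the gene is not known here, so this row does not check the genotype labels.

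In KO pancreas, 25 of the 49 proteasome genes rose and 3 fell, while 21 did not pass the test. Over all genes tested 21.6% were called, 14.6% rose and 6.99% fell, so the share of members that rose (51.0%) was above that background and the share that fell (6.12%) was near it. The median difference of the members was 0.55, against -0.06 for all genes. By role, 4 of 7 alpha ring genes, 2 of 8 beta ring genes, 4 of 6 ATPases, 11 of 14 Psmd genes, 1 of 4 activators and 3 of 4 Psmg chaperones rose. The 3 genes that fell were the beta ring gene Psmb3, the immunoproteasome gene Psmb10 and the chaperone gene Psmg3. All 4 KO arrays lay above all 4 WT arrays in 27 members and below them in 3, against 15.3% and 12.1% of all genes.

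**Figure D1:**
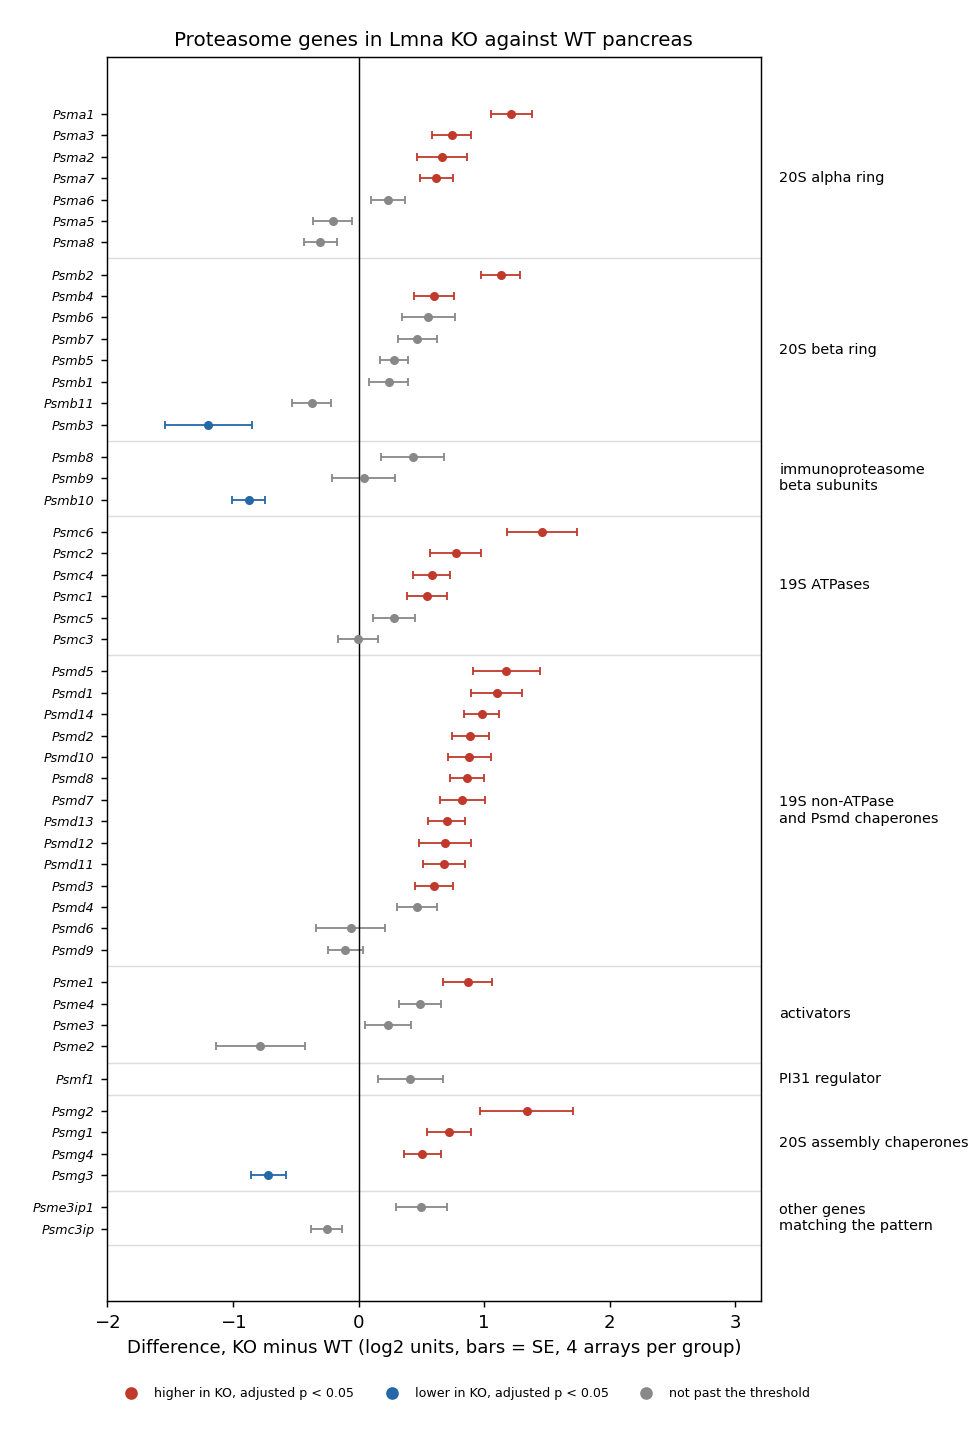
Difference in expression (KO minus WT, log2 units, bars are SE, 4 arrays per group) of the 49 genes, grouped by role, with genes past an adjusted p of 0.05 in red (higher in KO) or blue (lower in KO). Most of the regulatory particle lies to the right of 0, from 0.60 to 1.18 for the 11 Psmd genes that rose, while Psmb3, Psmb10 and Psmg3 lie to the left; after a second quantile normalization 8 genes are called higher and 9 genes in grey change sign under some setting.

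The background for these genes depends on their level, because genes of middle level were often higher in KO. Between a mean level of 4 and 8, 36.8% of 5996 genes rose, with a median difference of 0.46, and 23 of the 38 members at that level rose (60.5%), with a median of 0.61. By level, 4 of 7 members rose at a mean of 4 to 5 (all genes 36.6%), 9 of 16 at 5 to 6 (39.7%) and 10 of 15 at 6 to 8 (33.1%). Neither the share of the beta ring (2 of 8) nor that of the activators (1 of 4) exceeded these backgrounds. Those shares include Psmb3, Psmb11 and Psme2, whose mean level was under 4, so they are not matched by level. Under 4, 2 of 11 members rose, against 6.11% of all genes. No member had a mean of 8 or more, where 22.0% of all genes rose.

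How many members were called rested on how the arrays were scaled. As deposited, the interquartile range of the gene values was 2.11 to 2.48 in the WT arrays and 2.88 to 3.03 in the KO arrays. After a second quantile normalization 8 members rose and the members' median was 0.15; after cyclic loess these were 9 and 0.16, and after median centring 30 and 0.68. The share of all genes that rose moved as well, to 5.54%, 6.86% and 19.8%. At a mean level of 4 to 8 the second quantile normalization left 18.4% of members and 10.5% of all genes higher. The median of all genes itself lay at -0.06 as reported and at 0.08 once the arrays were centred. Among males only, 6 members rose and 1 fell, against 3.47% of all genes that rose. Without KO 1, KO 3 or KO 4 in turn, 16, 15 and 14 members rose, and 12.2%, 9.75% and 8.03% of all genes. The median of the members kept its sign in all of these settings.

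**Figure D2:**
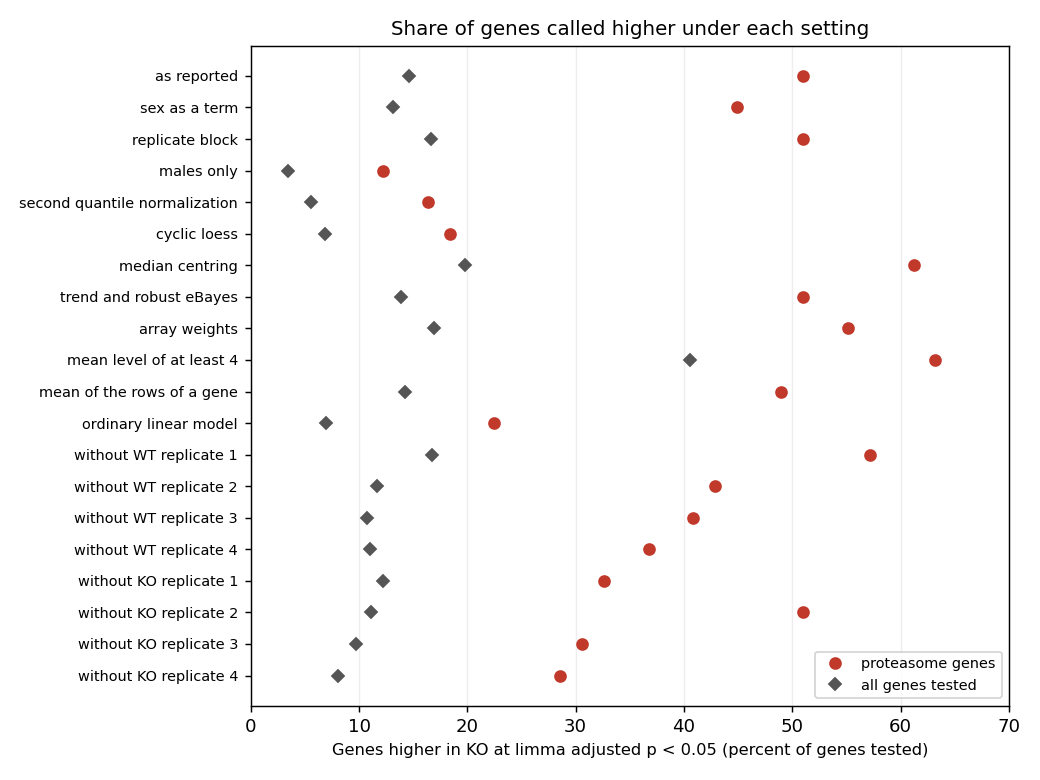
Share of genes called higher in KO (percent of genes tested, limma adjusted p under 0.05) as reported and under each other setting, for the proteasome genes (circles) and all genes tested (diamonds). The circles run from 12.2% (males only) to 63.2% (mean level of at least 4) and lie to the right of the diamonds in each setting.

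Of the 28 called members, 6 kept their call in each of the 19 alternatives that could test them: Psma1, Psmb2, Psmd2, Psmd8 and Psmd14, which rose, and Psmb10, which fell. To show what lies upstream of these steadiest genes, the 250 bases before the annotated start are given for the 5 of them that the RefSeq promoter table (GRCm38.p6) holds; Psmb2 has no entry there. Capitals mark a CCAAT box, the motif bound by NF-Y, read as CCAAT or its reverse complement ATTGG. Each is written from its own strand toward the gene.
Psma1: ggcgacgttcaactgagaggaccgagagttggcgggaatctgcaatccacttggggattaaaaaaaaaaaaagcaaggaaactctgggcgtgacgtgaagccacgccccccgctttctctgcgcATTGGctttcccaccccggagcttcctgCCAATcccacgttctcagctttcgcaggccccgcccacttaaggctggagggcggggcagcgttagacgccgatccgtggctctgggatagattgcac
Psmd2: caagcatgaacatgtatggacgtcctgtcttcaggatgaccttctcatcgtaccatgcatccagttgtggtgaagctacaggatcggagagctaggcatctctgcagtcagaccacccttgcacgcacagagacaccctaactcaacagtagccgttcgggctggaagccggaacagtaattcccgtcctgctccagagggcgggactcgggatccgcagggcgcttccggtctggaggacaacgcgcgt
Psmd8: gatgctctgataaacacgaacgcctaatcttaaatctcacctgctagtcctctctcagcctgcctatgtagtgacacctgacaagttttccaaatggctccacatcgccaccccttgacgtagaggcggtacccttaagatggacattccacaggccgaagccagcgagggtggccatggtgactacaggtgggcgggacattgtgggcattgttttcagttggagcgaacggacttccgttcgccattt
Psmd14: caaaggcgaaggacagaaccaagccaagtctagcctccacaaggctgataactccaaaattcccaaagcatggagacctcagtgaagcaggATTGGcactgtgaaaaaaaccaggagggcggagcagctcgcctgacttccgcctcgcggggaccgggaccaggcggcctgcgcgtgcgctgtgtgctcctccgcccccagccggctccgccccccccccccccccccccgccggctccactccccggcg
Psmb10: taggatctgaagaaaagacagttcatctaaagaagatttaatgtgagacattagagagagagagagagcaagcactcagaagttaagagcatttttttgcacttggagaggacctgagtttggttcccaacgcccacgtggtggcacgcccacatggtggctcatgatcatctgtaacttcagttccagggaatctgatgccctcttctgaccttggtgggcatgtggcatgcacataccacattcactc
The regions are chr7:114276117-114276366 on the minus strand for Psma1, chr16:20651402-20651651 on the plus strand for Psmd2, chr7:29180674-29180923 on the minus strand for Psmd8, chr2:61711444-61711693 on the plus strand for Psmd14 and chr8:105938393-105938642 on the minus strand for Psmb10. The 4 genes that rose had 12 to 18 CG dinucleotides in these 250 bases, and Psmb10 had 3. Over full windows of 300 bases the median was 19 in the members and 7 in all promoters. Psmb10 is the only gene that fell shown here, so a tie between CG count and direction cannot be read from these sequences. Psma1 carried a pair of CCAAT boxes, starting 126 and 98 bases before the start, and Psmd14 had 1, starting 159 bases before it.

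Over the full windows of the table, from 250 bases before to 50 after a start, 41 of the 49 members had an entry. Members were counted once per gene, by a match in any of their 45 windows, while all promoters were counted window by window. The shares set side by side are therefore not the same measure. A CCAAT box on either strand stood in 16 of these 41 (39.0%) and in 37.4% of all 32851 promoters. The core of the antioxidant response element that NRF1 and NRF2 read, TGACNNNGC on either strand, stood in 6 of 41 (14.6%) against 12.4% of all promoters, and 2 of the 21 genes with an entry that rose held it (Psmc6 and Psmd12). Followed by an A, which makes it a subset of the former, the counts were 2 of 41 (4.88%) and 3.04%. An interferon-type element, GAAA repeated after any 2 bases and read on either strand, stood in 5 members (12.2%, all promoters 3.44%), namely Psmb3, Psmd4, Psmd9, Psme1 and Psmg4, and not in the windows of Psmb8, Psmb9 or Psmb10. The element TGATGNAA, of the type bound by C/EBP and ATF4 factors, stood in 1 member, Psmd13 (all promoters 3.97%). The median GC content was 57.3% over the members' 45 promoter windows and 52.7% over all promoters. A match is a run of letters and no evidence that a factor binds.

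The alpha ring forms the gated entrance of the core. Psma1 read 4.76, 4.19, 4.32 and 4.41 in the WT arrays and 5.66, 5.40, 5.56 and 5.94 in the KO arrays, always given here in the order 1 to 4. It rose by 1.22 ± 0.16 (log2, SE, 2.33-fold, limma adjusted p = 0.00239), and the groups stood apart by more than the range within either. Psma3 read 7.13, 6.59, 6.93 and 6.68 in WT and 7.69, 7.33, 7.53 and 7.74 in KO, a rise of 0.74 ± 0.15 (adjusted p = 0.0111). Psma7 read 6.53, 6.47, 6.68 and 6.33 in WT and 7.20, 6.91, 7.29 and 7.09 in KO, a rise of 0.62 ± 0.13 (adjusted p = 0.0115). In both genes every KO array lay above every WT array, and both calls were lost after a second quantile normalization (0.42 and 0.27). Psma2 rose by 0.66 ± 0.20 (adjusted p = 0.0419), although WT 1 (6.74) lay above KO 3 (6.64). Its call was lost with sex as a term, after a second quantile normalization (0.28) and without any single array other than WT 1. Psma6 (0.23 ± 0.13, adjusted p = 0.215) did not pass, nor did Psma8, the testis form of an alpha subunit (-0.30 ± 0.13, adjusted p = 0.12). Psma5 was measured on a dim row (-0.20 ± 0.16, adjusted p = 0.342).

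The beta ring carries the proteolytic sites, held by Psmb5, Psmb6 and Psmb7, beside structural subunits. The structural subunit Psmb2 read 5.23, 4.61, 4.78 and 4.62 in WT and 6.11, 5.82, 5.90 and 5.94 in KO. It rose by 1.13 ± 0.16 (2.19-fold, adjusted p = 0.00254), with the lowest KO array above the highest WT array by more than the SD of either group (0.29 in WT, 0.12 in KO). Psmb4 read 4.73, 4.95, 5.02 and 4.68 in WT and 5.51, 5.04, 5.61 and 5.62 in KO, a rise of 0.60 ± 0.16 (adjusted p = 0.0267). KO 2 stood at the level of WT 3 there, and the other KO arrays lay higher. Psmb4 was not called after a second quantile normalization (0.16), nor without WT 4, KO 1, KO 3 or KO 4. Psmb3, also structural, went the other way, with 3.17, 5.01, 3.81 and 4.30 in WT and 2.80, 2.43, 3.26 and 3.02 in KO. Its fall of 1.19 on the log2 scale (SE 0.35, adjusted p = 0.0366) was carried by a wide WT group (SD 0.78), in which WT 1 lay below KO 3, and the call was kept without WT 1 but lost without any other single array (-0.88 without WT 2). Psmb1 (0.24 ± 0.15, adjusted p = 0.261) and the thymic subunit Psmb11 (-0.37 ± 0.16, adjusted p = 0.109) did not pass.

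None of the 3 constitutive catalytic genes passed the test. Psmb5, the chymotrypsin-like site, read 4.88, 4.66, 4.83 and 4.85 in WT and 5.04, 4.96, 5.24 and 5.11 in KO (0.28 ± 0.11, adjusted p = 0.0974). Psmb6, the caspase-like site, read 5.33, 4.60, 4.97 and 4.93 in WT and 5.37, 5.08, 5.95 and 5.64 in KO (0.56 ± 0.21, adjusted p = 0.0829). Psmb7, the trypsin-like site, read 6.35, 5.72, 6.20 and 5.95 in WT and 6.55, 6.48, 6.35 and 6.69 in KO (0.47 ± 0.15, adjusted p = 0.0563). The KO arrays lay above the WT arrays in Psmb5 and, by a hair, in Psmb7, while KO 2 lay below WT 1 in Psmb6. The 95% intervals were 0.03 to 0.54, 0.09 to 1.02 and 0.12 to 0.81, so a rise as large as that of Psmb4 lies within the intervals of Psmb6 and Psmb7 and outside that of Psmb5. Psmb5 turned to -0.14 after a second quantile normalization and to -0.10 after cyclic loess. In the other direction, median centring called all 3 higher. Array weights and leaving out WT 1 each called Psmb6 and Psmb7, leaving out KO 2 called Psmb6, and testing only genes with a mean level of at least 4 called Psmb7.

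The immunoproteasome subunits Psmb8, Psmb9 and Psmb10 replace Psmb5, Psmb6 and Psmb7, and they did not move together. Psmb10 read 6.46, 6.51, 6.61 and 6.16 in WT and 5.47, 5.47, 5.73 and 5.55 in KO. It fell by 0.88 on the log2 scale (SE 0.13, 1.83-fold lower, adjusted p = 0.00355), with all KO arrays below all WT arrays. Psmb8 read 3.70, 4.77, 4.01 and 4.47 in WT and 4.21, 4.94, 4.59 and 4.93 in KO (0.43 ± 0.25, adjusted p = 0.218, 95% interval -0.12 to 0.99). Its groups overlapped, but each KO array lay above the WT array of the same number, and with the replicate number as a block the adjusted p was 0.0525. Psmb9 read 2.70, 3.08, 2.79 and 3.59 in WT and 2.56, 3.62, 2.98 and 3.18 in KO (0.04 ± 0.25, adjusted p = 0.912), with WT 4 and KO 2 the highest of their groups.

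To ask whether an inducible subunit changed by another amount than the one it replaces, the log2 difference of the 2 rows was taken in each array; its sign has no meaning across rows, but its change between groups does. Psmb10 minus Psmb7 was 0.11, 0.78, 0.41 and 0.21 in WT and -1.08, -1.01, -0.62 and -1.13 in KO. The shift of -1.34 separated the groups completely (p = 0.0286 in an exact two-sided permutation test, the lowest value possible with 4 arrays a side), but 3 pairs were tested and the Benjamini-Hochberg adjusted p was 0.0857. It ranged from -1.46 to -1.21 with any array left out and was -1.35 after a second quantile normalization. Psmb8 minus Psmb5 shifted by 0.15 (exact permutation p = 0.657, adjusted p = 0.657) and Psmb9 minus Psmb6 by -0.51 (exact permutation p = 0.286, adjusted p = 0.429), both with overlapping groups.

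**Figure D3:**
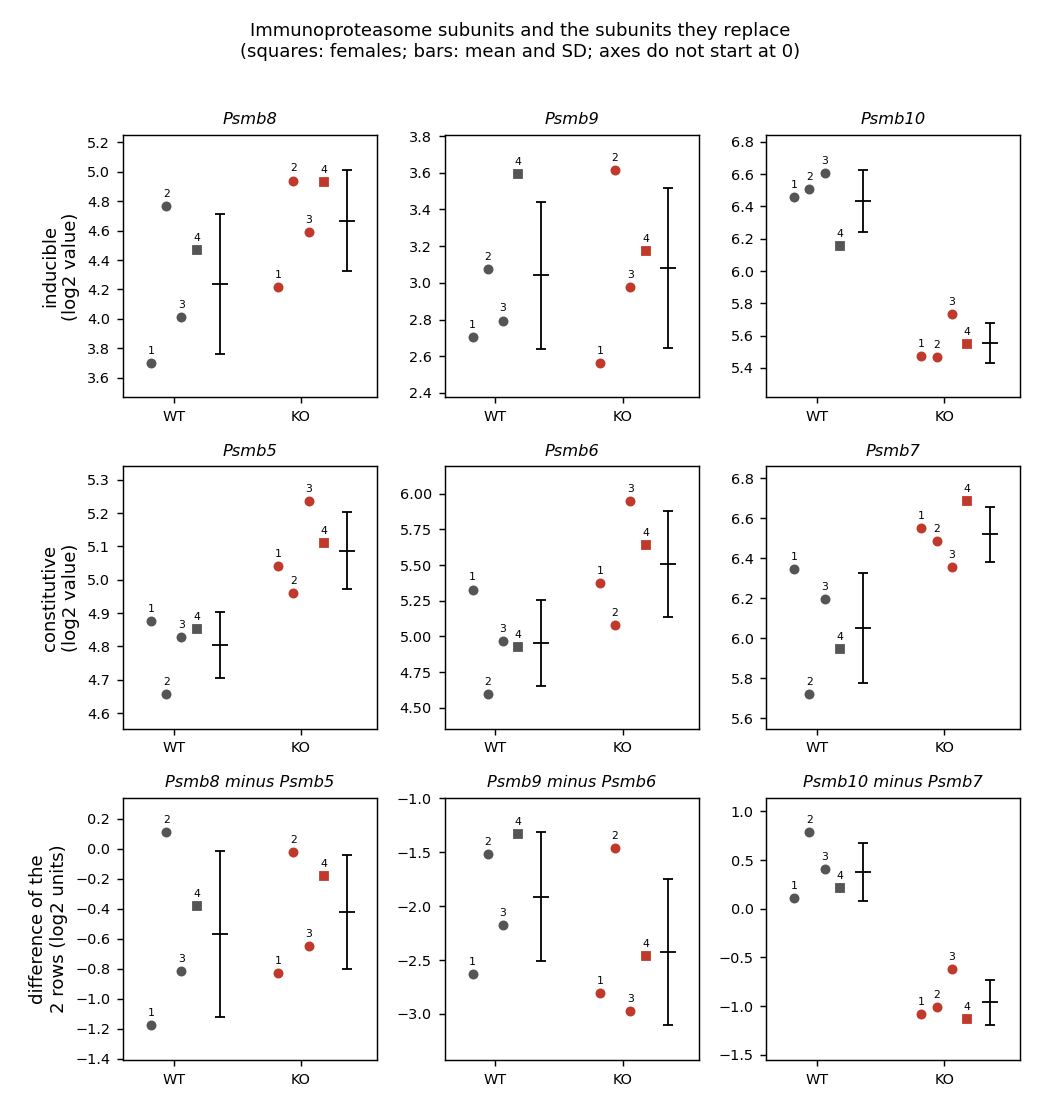
Log2 expression per array of the 3 immunoproteasome genes (top), the 3 constitutive genes they replace (middle) and the difference of the 2 rows (bottom, log2 units), with WT in grey, KO in red, females as squares, array numbers beside the points, and bars for mean and SD. In the right column Psmb10 is at 5.47 to 5.73 in KO and 6.16 to 6.61 in WT, and the groups separate in the difference; the left and middle columns overlap in the difference.

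Genes of antigen processing and interferon signalling were read beside the immunoproteasome, which interferon induces. The list also holds endoplasmic reticulum chaperones and genes of the interferon receptor and its kinases. Its count is therefore not one of interferon-induced genes alone. Of 19 measured genes on this list 13 rose and 0 fell, with a median difference of 0.65, while 14.6% of all genes rose. At a mean level of 4 to 8, where 36.8% of all genes rose, 7 of 9 rose. The endoplasmic reticulum chaperones Pdia3 (1.48 ± 0.14, limma adjusted p = 0.000889) and Calr (1.29 ± 0.14, adjusted p = 0.00125), which also fold other proteins, the peptide-loading factor Tapbp (0.98 ± 0.16, adjusted p = 0.00483, not called at 0.55 after a second quantile normalization) and the kinase Jak2 (1.34 ± 0.24, adjusted p = 0.00597) rose. Irf1, the interferon-induced factor that drives immunoproteasome genes, read 2.97, 3.30, 3.40 and 3.03 in WT and 3.01, 3.83, 3.60 and 3.32 in KO (0.27 ± 0.19, adjusted p = 0.305). Most measured genes of this list rose, while of the 3 immunoproteasome genes 0 rose and 1 fell; the difference between these counts was not tested.

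Several markers of macrophages and monocytes were higher in KO, and those of other leukocytes mostly did not pass. Of 14 macrophage and monocyte markers 7 rose and 0 fell, while 14.6% of all genes rose. At a mean level of 4 to 8, 5 of 11 rose, against 36.8% of all genes. The median difference of these 11 was 1.55, against 0.46 for all genes at that level. The summed log2 level of the 14 markers was 7.99 to 9.72 in WT and 9.43 to 10.87 in KO. Of 5 markers of all leukocytes 0 passed, with a summed level of 5.49 to 7.58 in WT and 6.96 to 9.06 in KO. Of 12 markers of T and NK cells 0 rose and 1 fell (5.53 to 6.35 in WT, 5.51 to 5.75 in KO), and of 6 B and plasma cell and 8 neutrophil markers 0 passed. All measured T and NK, B and plasma cell and neutrophil markers had a mean level under 4. Signal over background is unknown, so whether these dim rows could show a change cannot be judged. Macrophages express Psmb8, Psmb9 and Psmb10, and the part of these cells in the values of any proteasome gene was not tested.

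The base of the regulatory particle holds 6 ATPases, which unfold substrates and open the gate. Psmc6 read 6.73, 5.24, 5.55 and 5.92 in WT and 7.58, 7.05, 7.33 and 7.32 in KO. Its rise of 1.46 ± 0.28 (2.75-fold, adjusted p = 0.00845) had the largest value among the members, and WT 1 stood nearest to the KO arrays. Psmc4 read 5.70, 5.80, 6.23 and 5.93 in WT and 6.67, 6.50, 6.27 and 6.55 in KO, a rise of 0.58 ± 0.15 (adjusted p = 0.0223), where KO 3 only just cleared WT 3. Psmc2 read 6.29, 5.43, 6.03 and 5.98 in WT and 6.82, 6.37, 7.03 and 6.62 in KO, a rise of 0.78 ± 0.20 (adjusted p = 0.0257). A second, dimmer Psmc2 row gave 0.49 ± 0.13 in the same direction. Psmc1 rose by 0.55 ± 0.16 (adjusted p = 0.0355). Psmc5 (0.28 ± 0.17, adjusted p = 0.226) and Psmc3 (0.00 ± 0.16, adjusted p = 0.995, 95% interval -0.36 to 0.36) did not pass. Of the 4 ATPase calls, Psmc6 kept its call after a second quantile normalization (1.08), while Psmc4 (0.20), Psmc2 (0.39) and Psmc1 (0.11) did not. Without KO 1 or without KO 4, the calls of Psmc4, Psmc2 and Psmc1 were lost; those of Psmc2 and Psmc1 were also lost without WT 4 or KO 3, that of Psmc2 without WT 3 and that of Psmc1 without WT 2.

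The Psmd genes code for the scaffold, the ubiquitin receptors, the lid and some chaperones of the regulatory particle. Psmd14, the enzyme that removes ubiquitin from substrates, read 4.12, 4.13, 4.34 and 4.16 in WT and 4.94, 5.29, 5.03 and 5.41 in KO. It rose by 0.98 ± 0.14 (1.97-fold, adjusted p = 0.00265). The lid subunit Psmd8 read 6.93, 6.55, 6.63 and 6.48 in WT and 7.62, 7.36, 7.63 and 7.43 in KO, a rise of 0.86 ± 0.13 (adjusted p = 0.00398). The scaffold subunit Psmd2 read 5.57, 5.04, 5.58 and 5.50 in WT and 6.27, 6.34, 6.18 and 6.48 in KO, a rise of 0.89 ± 0.15 (adjusted p = 0.00497). In all 3 genes every KO array lay above every WT array, and all 3 calls held under each alternative.

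The 8 other Psmd genes that rose did so by 0.60 to 1.18. Psmd1, the other scaffold subunit, rose by 1.10 ± 0.20 (adjusted p = 0.0071), and WT 2 (4.53) was its lowest array. The assembly chaperones Psmd5 (1.18 ± 0.27, adjusted p = 0.0158) and Psmd10, also called gankyrin (0.88 ± 0.17, adjusted p = 0.00888), rose, while the chaperone Psmd9 did not pass (-0.10 ± 0.14, adjusted p = 0.586). The lid subunits Psmd7 (0.83), Psmd13 (0.70), Psmd12 (0.69), Psmd11 (0.68) and Psmd3 (0.60) rose, with adjusted p from 0.0115 to 0.0417. After a second quantile normalization none of these 5 was called, with values of 0.50, 0.27, 0.30, 0.30 and 0.18 in that order, and all 5 calls were lost under cyclic loess too. Psmd12 lost its call without any single array other than WT 1, Psmd11 without WT 3, KO 3 or KO 4, and Psmd3 without KO 1, KO 3 or KO 4. The calls of Psmd5 (0.78) and Psmd10 (0.48) were lost after a second quantile normalization, while that of Psmd1 (0.69) was kept. The ubiquitin receptor Psmd4 missed the threshold (0.47 ± 0.16, adjusted p = 0.0606). The lid subunit Psmd6 ran from 5.56 (WT 2) to 7.05 (WT 1) in WT and from 6.19 to 6.59 in KO (-0.06 ± 0.27, adjusted p = 0.875), so its KO arrays lay inside the WT range.

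**Figure D4:**
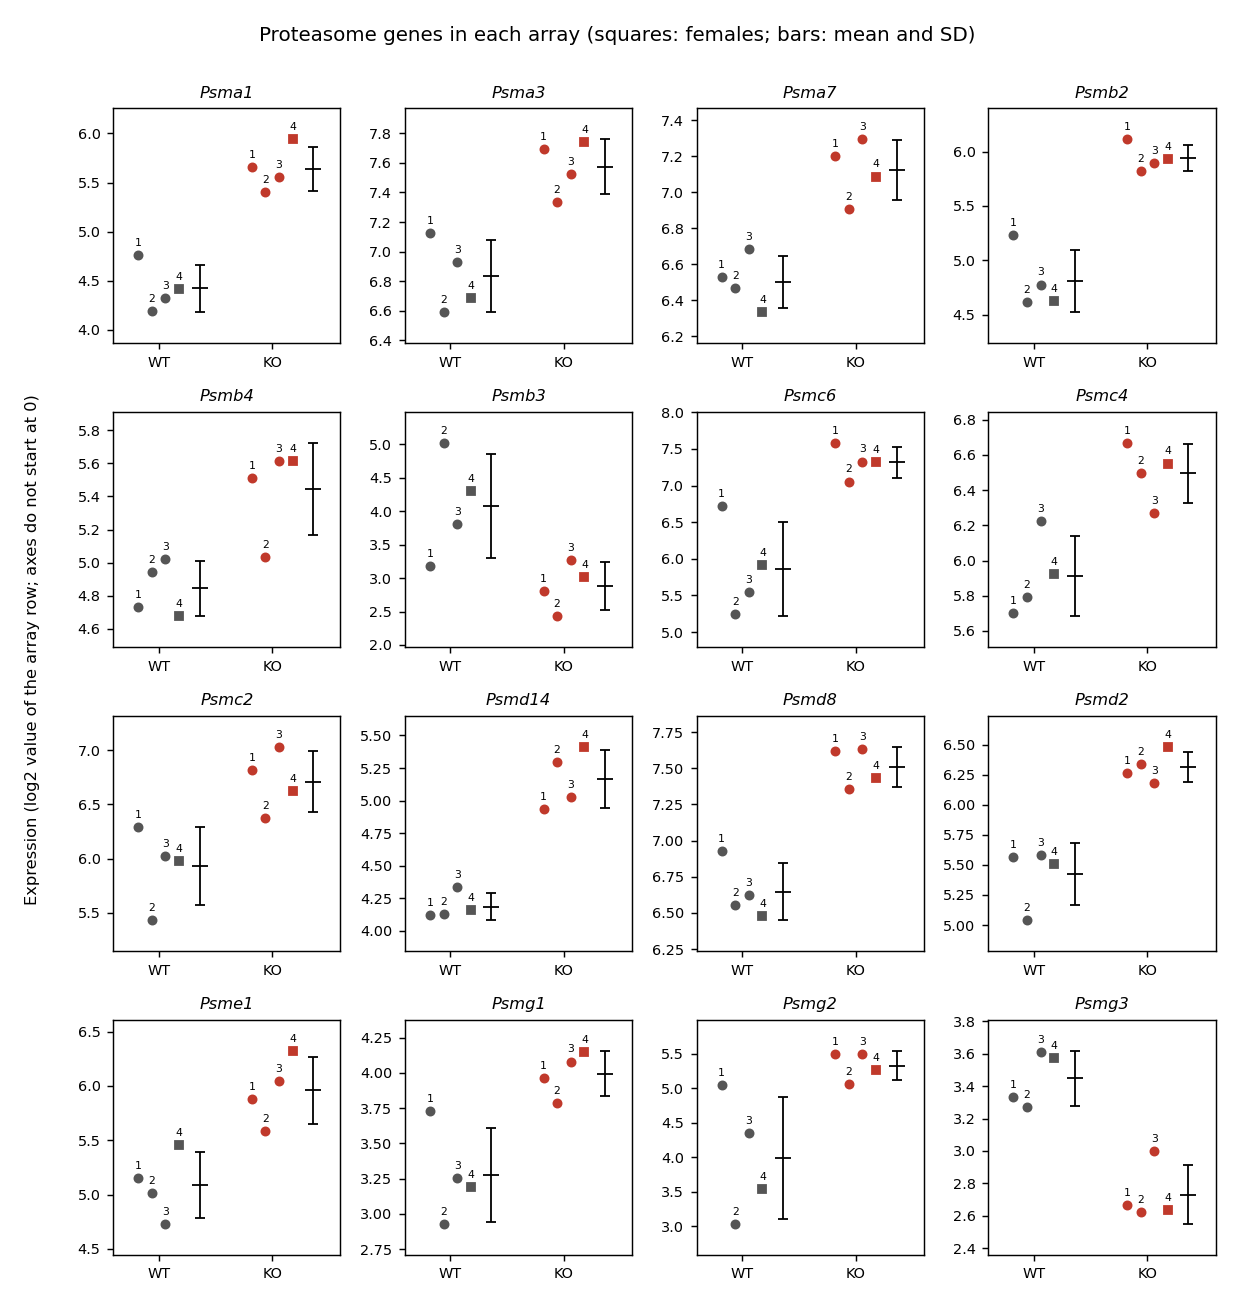
Log2 expression of 16 proteasome genes in each array (WT grey, KO red, females as squares, array number beside each point, bars for mean and SD; axes do not start at 0). KO points lie above WT points in 14 panels and below them in Psmg3, while Psmb3 overlaps; WT 2 is the lowest WT point for Psmc6, Psmc2, Psmd2 and Psmg2, among others.

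Activators cap the core in place of the regulatory particle. Psme1, a subunit of the interferon-inducible activator, read 5.15, 5.02, 4.73 and 5.45 in WT and 5.88, 5.58, 6.05 and 6.32 in KO, a rise of 0.87 ± 0.19 (1.83-fold, adjusted p = 0.0146) that was not called after a second quantile normalization (0.44). Its partner subunit Psme2 did not pass and had a value of opposite sign (-0.78 ± 0.36, adjusted p = 0.134), with WT arrays from 2.57 to 4.36. Transcripts of Psme2 and a near-identical copy could share probes, so that value is uncertain. Psme4, the large activator of the nucleus, missed the threshold (0.49 ± 0.17, adjusted p = 0.0652), and the nuclear activator Psme3 did not pass (0.23 ± 0.18, adjusted p = 0.352). The regulator Psmf1 (0.41 ± 0.26, adjusted p = 0.25) did not pass; WT 2 read 3.49 there, while the other WT arrays read 4.54 to 4.82 and the KO arrays 4.74 to 4.90. Neither Psme3ip1 (0.50 ± 0.21, adjusted p = 0.103, but 0.0498 with the replicate number as a block) nor Psmc3ip (-0.25 ± 0.12, adjusted p = 0.154) passed.

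The Psmg chaperones work in pairs to build the alpha ring, Psmg1 with Psmg2 and Psmg3 with Psmg4. Psmg1 read 3.73, 2.93, 3.25 and 3.19 in WT and 3.97, 3.78, 4.08 and 4.15 in KO, a rise of 0.72 ± 0.17 (adjusted p = 0.0196) that was not called after a second quantile normalization (0.52) or without KO 3 or KO 4. Psmg2 read 5.04, 3.03, 4.35 and 3.53 in WT and 5.50, 5.06, 5.49 and 5.26 in KO, a rise of 1.34 ± 0.37 (2.53-fold, adjusted p = 0.0307). KO 2 barely cleared WT 1 in Psmg2. The call was lost without WT 2 (1.02), without WT 4, KO 1, KO 3 or KO 4, and when its rows were averaged (0.56), since a second, dimmer row differed by -0.22 ± 0.12. The second pair moved apart. Psmg3 read 3.34, 3.27, 3.61 and 3.57 in WT and 2.67, 2.62, 3.00 and 2.64 in KO, a fall of 0.72 on the log2 scale (SE 0.14, adjusted p = 0.00808), with no overlap. Psmg4 rose by 0.51 ± 0.15 (adjusted p = 0.0348), from WT arrays at 1.64 to 1.76, and with the replicate number as a block it missed the threshold (adjusted p = 0.0516). Ranked by mean level among all genes, the Psmg4 row stood at percentile 35.1 and the Psmg3 row at percentile 59.4.

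Cofactors that carry other names were taken from a list of 23, of which 18 were measured; 8 rose and 0 fell, with a median of 0.43. All 8 were among the 16 with a mean level of 4 to 8, where 36.8% of all genes rose; the median of these 16 was 0.60, against 0.46 for all genes at that level. Pomp, the maturation protein of the core, read 4.62, 4.81, 5.16 and 5.16 in WT and 5.81, 5.86, 5.89 and 5.94 in KO, a rise of 0.94 ± 0.14 (limma adjusted p = 0.00376) that was not called after a second quantile normalization (0.51) or cyclic loess (0.54). The shuttle protein Ubqln2 (1.02 ± 0.18, adjusted p = 0.00642), the ubiquitin ligase Ube3c (1.09 ± 0.20, adjusted p = 0.00664) and the deubiquitinase Usp14 (1.06 ± 0.20, adjusted p = 0.00724) rose. Usp14 and Ube3c act on the proteasome itself.

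Of 12 measured genes on the list of NRF1 and its activation 4 rose and 0 fell. At a mean level of 4 to 8 these were 4 of 11, a share near the 36.8% of all genes at that level. Nfe2l1 read 5.38, 5.28, 5.60 and 5.34 in WT and 5.87, 5.91, 6.05 and 5.98 in KO, a rise of 0.55 ± 0.12 (limma adjusted p = 0.0114) that was not called after a second quantile normalization (0.12). Faf2 (1.08 ± 0.16, adjusted p = 0.00331) and Ufd1 (1.10 ± 0.17, adjusted p = 0.00401), partners of the segregase Vcp that pulls proteins from the endoplasmic reticulum, rose. The NRF1 cofactor Hcfc1 rose by 1.03 ± 0.18 (adjusted p = 0.00572), and was not called after a second quantile normalization (0.61). On the ubiquitin list only Uba6, a ubiquitin-activating enzyme, had a row of its own among 6 genes, and it rose by 2.23 ± 0.32 (adjusted p = 0.00302).

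The arrays of a group did not differ evenly. WT 2 was the lowest WT array in 28 of the 49 members, against 30.5% of all genes, and KO 2 was the lowest KO array in 35, against 33.3%. At a mean level of 4 to 8 these were 25 and 27 of 38 members, while WT 2 was lowest in 58.2% and KO 2 in 39.1% of all genes at that level. The median SD of the members was 0.27 in WT and 0.17 in KO, and that of all genes was 0.25 and 0.17. Leaving out WT 2 lowered the count of members that rose to 21, with 11.6% of all genes, and leaving out KO 2 left it at 25, with 11.1%. The count was lower still without WT 3 (20, all genes 10.7%) or WT 4 (18, all genes 10.99%), and it was 28 without WT 1 (all genes 16.7%). It was lowest without KO 1, KO 3 or KO 4, as given above. The drop without WT 2 was therefore not particular to that array. In markers of other cells, WT 2 had the highest macrophage sum in WT (9.72), with WT 4 near it (9.56). KO 2 had the highest sums in KO for leukocytes (9.06, KO 4 at 8.91), B and plasma cells (7.94) and, from a further list, stellate cells and fibroblasts. WT 4 had the highest leukocyte sum in WT (7.58) and KO 4 the highest macrophage sum in KO (10.87). WT 4 and KO 4 were the lowest of their group in 6 and 2 of the 49 members. The part of other cells in the low proteasome values of WT 2 and KO 2 was not tested.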

How the data were processed

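The authors deposited 1 table of log2 expression values, 41345 array rows by 8 arrays; the submitters' processing notes list RMA, oligo and limma without a version. RMA in general subtracts a modelled background, equalizes the arrays by quantiles and joins the probes of a row. The deposited arrays do not share 1 distribution, however. Their medians over all rows were 2.22 to 2.33 in WT and 2.13 to 2.17 in KO, and their spread differed as given above. Why they differ was not tested. The log base is read from the range of the values (0.04 to 12.5), since no source used here states it, nor signal over background, probe positions, the array's genome build or scan batches. Per the labels' protocols, 100 ng of total RNA gave the biotinylated cDNA hybridised.

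Of the rows 23521 (56.9%) had 1 gene symbol in the platform annotation; 1814 rows with several and 16010 with none were left out. Of genes in several rows (1082, among them Psma5, Psmc2 and Psmg2) the brightest row on average was used, with no filter on dim rows. KO was compared with WT by limma 3.58.1 (lmFit, eBayes) in R 4.3.3 with genotype as the only factor; ± after a difference is its SE, and intervals are 95%. Exchange pairs were tested by exact two-sided permutation of the arrays. No set test was run. The steps were tested on simulated data. Precision is limited by having 4 arrays a group, and the scaling moves the values too.

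Both groups carry replicate numbers 1 to 4. Across genes, same-numbered arrays deviated from their group means with correlations of 0.26, 0.17, 0.11 and 0.14, each above 0.1, which by the rule used here pairs the arrays. However, 2 of the other pairings were also above 0.1, and no label ties a number to a litter or day. As pairs, 4 against 4 arrays allow no exact p under 0.125.

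Values in every array were given for up to 3 called members of smallest p per role, called members that fell, the immunoproteasome genes and Psmb5, Psmb6 and Psmb7; up to 2 members per role of largest difference that did not pass, up to 4 called genes of smallest p per pathway list, Nfe2l1, Pomp, Irf1 and Lmna were also named. The remaining members were added after their values were seen. The members, lists and rules were chosen with earlier results of these data known. A list's summed level is the log2 of the sum of its genes' linear values. The other lists gave 1 higher and 1 lower of 5 duct markers, 1 higher of 9 stellate cell and fibroblast markers, and 0 called of 6 islet, 6 B and plasma cell, 8 neutrophil and 7 endothelial markers. Promoter sequences are RefSeq's (GRCm38.p6), searched and plotted with Python 3.11.15 and matplotlib 3.10.9. Alternatives were a term for sex, a block for the replicate number, males alone, leaving out 1 array at a time, quantile normalizing again, cyclic loess, centring on medians, trend and robust eBayes, array weights, a mean level of at least 4, the mean of a gene's rows and an ordinary linear model; the shares by level bin and the second rows were added after seeing the data.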

Additional observations from a re-analysis of the deposited data

Results flagged for a closer look

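Among the named genes, the 4 arrays of a group were checked for one that stood apart from the rest (Dixon's test), which chance alone flags in about 1 of 20 groups. It marked 5 of the 128 groups. Psma8 in WT 2 read 2.49, with the next WT array at 2.07. Psmb1 in KO 2 read 6.58, with the next at 7.02. Psmd14 in WT 3 read 4.34 (next 4.16), Psmd2 in WT 2 read 5.04 (next 5.50) and Psmg3 in KO 3 read 3.00 (next 2.67). Psmd14, Psmd2 and Psmg3 kept their calls without that array.

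The second row of Psmc2, which the choice of the brighter row sets aside, was also higher in KO, by 0.49 ± 0.13 (limma adjusted p = 0.0444 over all 41345 rows), from 3.17 to 3.67.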

How the results depend on the processing

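With the replicate number as a block 25 proteasome genes rose and 3 fell; 27 of the 28 called members kept their call (Psmg4 lost it) and Psme3ip1 gained one. In all, 7 members that did not pass were called under some alternative. Among males only 6 rose and 1 fell. Quantile normalizing again gave 8, cyclic loess 9, an ordinary linear model 11, and leaving out an array 14 (without KO 4) to 28 (without WT 1); 2 to 3 fell with an array left out. At a mean level of at least 4, which leaves out Psmb3 and Psmg3, 1 fell. Of the 28 calls, 10 were kept when quantile normalizing again, 12 under cyclic loess and 7 in males; the cause was not tested. No called member changed sign under the 19 alternatives, while 9 that did not pass did under some.

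Over all genes, 3241 rose and 1551 fell. Males only gave 770 and 145, quantile normalizing again 1228 and 1142, cyclic loess 1521 and 1178, median centring 4390 and 615, an ordinary linear model 1534 and 847. At a mean level of at least 4, 291 fell. With an array left out 1781 to 3713 rose and 459 to 2357 fell. Here too the cause was not tested.

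Quantile normalizing again and cyclic loess turned the sign of Psma6 (-0.20, -0.17), Psmb1 (-0.11, -0.14), Psmb5 (-0.14, -0.10), Psmc5 (-0.15, -0.11), Psme3 (-0.18, -0.16) and Psmb9 (-0.0557, -2.9237e-05). Median centring turned Psmc3 (0.14), Psmd6 (0.0740) and Psmd9 (0.0317), and males only Psmd6 (0.0356). With an array left out Psmb9 ranged from -0.14 to 0.22, Psmc3 from -0.0809 to 0.11, Psmd6 from -0.36 to 0.14 and Psmd9 from -0.17 to 0.000176. Psmb8 minus Psmb5 shifted by -0.0559 (without WT 1) to 0.37, Psmb9 minus Psmb6 by -0.84 to -0.32 and Psmb10 minus Psmb7 by -1.46 to -1.21. With arrays paired by replicate number (sign flips) each of these 3 had an adjusted p of 0.25 by an exact permutation test, in a design that allows none under 0.05. Signal over background is unknown, so the depth of dim rows such as Psmg4, Psma8 and Psmb11 cannot be judged.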
